A study of Homo sapiens with 12 samples.

Results

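The 43 mitosis and spindle genes studied here encode the proteins that carry a cell through mitosis. They were chosen by gene symbol, with a rule that uses no measured ratio, but the list was written with earlier results of these data known. All 43 symbols were found among the 30238 gene names on the array, by 58 probes in total, of which 12 members had several. Each gene was represented by its brightest probe, and both biological replicates are shown apart. Every one of the 43 was well above background on all 8 arrays of each culture. All 43 also passed the filter on dim probes, a separate limit set by the negative control spots, so the set is complete in every comparison.

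The study compared 3 cultures of Rh30, an established human alveolar rhabdomyosarcoma (ARMS) cell line that carries the PAX3-FKHR fusion of the genes PAX3 and FOXO1. WT was the untransfected parental line, grown without puromycin. CON was an Rh30 clone with a non-targeting control sequence in the vector pSUPER.retro.puro, and KD1 was an Rh30 clone in which the same vector carried a sequence against PAX3-FKHR. Both clones were kept in puromycin at 1 μg/mL, RNA was taken 24 h after the cells were plated, and 500 ng of it was labeled. KD1 and CON were each a single clone, so the effect of the knockdown cannot be told apart from a difference between clones. There were 12 two-color Agilent arrays for 3 comparisons (KD1 vs CON, KD1 vs WT and WT vs CON), with 2 biological replicates per comparison and a dye-swap pair per replicate. The 6 RNA extracts were on 4 arrays each, so both KD1 comparisons share the KD1 extracts. The KD1 arrays of replicate 1 were on slide 1 and those of replicate 2 on slide 2, and all WT vs CON arrays were on slide 3, so in the KD1 comparisons slide and replicate cannot be told apart. P-values measure the spread between these replicates, and their cultures are described only as biological replicates.

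Across the 12 arrays, 71.1% to 73.6% of spots were well above background in Cy3 and 64.4% to 67.8% in Cy5, and no spot was saturated. Of 6 markers of the skeletal muscle lineage, MYOD1, MYOG, MYF5, DES and CHRNA1 were well above background on all 8 arrays of each culture; of the 5 markers of fusion-positive rhabdomyosarcoma, HMGA2, FGFR4 and MYCN were, and TFAP2B was not on any array. Of the markers of other cell types, COL1A1, COL3A1, PECAM1, VWF, CD3E and CD14 were also above background on all arrays, while LUM, PDGFRA, KDR and PTPRC were not on any. Of the 6 that were on all arrays, VWF and CD3E did not pass the filter in KD1 vs CON and were not tested there. In that comparison VWF was at 1.01 and 2.97 and CD3E at -0.08 and -0.25 in replicates 1 and 2. Where tested, none of the 6 was called by limma, with 1 higher at an unadjusted p under 0.05 in KD1 vs WT and 1 between WT and CON. VWF, the endothelial von Willebrand factor, was at 1.02 and 3.42 in replicates 1 and 2 of KD1 vs WT (adjusted p = 0.108, limma). The collagen genes COL1A1 and COL3A1 were at 0.37 and 0.98 and at 0.44 and 0.51 in KD1 vs CON. Of the muscle markers, MYOG was at -1.35 and -0.92 in KD1 vs CON, and at -1.96 and -1.49 in WT vs CON, where it was called (adjusted p = 0.0183, limma), and MYF5 was at -1.42 and -2.42 in KD1 vs WT (adjusted p = 0.068, limma). With another background correction and normalization (normexp and loess), 0 probes were called lower in WT vs CON, so the call of MYOG was lost there. The part of these markers in the results on the mitotic genes was not tested. No probe was named for the fusion itself. The brightest FOXO1 probe had log2 ratios of -0.26 and -0.58 in replicates 1 and 2 of KD1 vs CON and of -0.79 and -0.41 in KD1 vs WT. Of the 3 PAX3 probes, 2 were below 0 in all 4 of these values, and the third, A_23_P209499, was above 0 in replicate 1 of both comparisons (0.16 and 0.26). Both genes also make normal transcripts, so these probes do not measure the fusion alone.

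As background, entry into mitosis is driven by CDK1 bound to cyclin A or cyclin B, which the CDC25 phosphatases switch on. Aurora and Polo-like kinases, kinesin motors and kinetochore proteins then build the spindle and attach the chromosomes, and the spindle checkpoint holds back separase until every chromosome is attached. Most of these genes are transcribed mainly in late S, G2 and M phase, so that their RNA level in a culture rises and falls with the share of cycling cells. In RNA of a whole culture, fewer cells in these phases and less RNA per cell cannot be told apart.

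Many promoters of this gene class hold a cell cycle genes homology region (CHR) and CCAAT boxes. The CHR was searched as TTTGAA and as its variant with the letters TTCGAA, and the box as CCAAT, each on both strands of the RefSeq promoter windows of GRCh38.p14 (250 bases before to 50 bases after a start site). Of the 43 members, 37 had an entry. A CHR match was found in 29 of these 37 (78.4%), against 19.5% of 27305 genes with an entry, and a CCAAT match in 28 of 37 (75.7%) against 39.7%. Both kinds were found in 22 members (59.5%), against 7.8% of all genes, and 1 CHR match in a member promoter overlapped a CCAAT match. The rule that chose the members did not use sequence. No other spelling of the CHR was searched, so a member without a match may hold a CHR spelled differently. The stretch printed below for CCNA2, which had no CHR match, holds cttgaa, which was not searched. The median mean log2 ratio in KD1 vs CON was -0.21, with -0.40 for KD1 vs WT, for the 29 members with a CHR match, and -0.39 and -0.36 for the 8 without one, so the order of the 2 medians was not the same in both comparisons. The 120 bases before the start site are shown for 1 member per role, to show where the searched matches are shared and where they are not. The member shown is the one with the larger change in KD1 vs CON that had a single entry. CHR and CCAAT matches on either strand are in capitals. Matches outside these 120 bases are not shown, as for MAD2L1, with TTTGAA at 25 and CCAAT at -229 from the start site.
CCNA2 (cyclin A), chr4:121823884-121824003, minus strand: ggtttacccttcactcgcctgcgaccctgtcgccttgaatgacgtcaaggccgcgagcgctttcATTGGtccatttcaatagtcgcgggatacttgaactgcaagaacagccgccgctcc
PLK1 (a mitotic kinase), chr16:23678769-23678888, plus strand: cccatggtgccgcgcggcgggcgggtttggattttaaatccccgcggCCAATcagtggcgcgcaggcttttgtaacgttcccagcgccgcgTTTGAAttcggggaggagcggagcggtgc
MAD2L1 (a checkpoint protein), chr4:120066849-120066968, minus strand: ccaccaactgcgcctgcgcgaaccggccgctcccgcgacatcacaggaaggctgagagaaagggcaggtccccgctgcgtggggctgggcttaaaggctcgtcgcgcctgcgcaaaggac
CENPE (a kinetochore motor), chr4:103198344-103198463, minus strand: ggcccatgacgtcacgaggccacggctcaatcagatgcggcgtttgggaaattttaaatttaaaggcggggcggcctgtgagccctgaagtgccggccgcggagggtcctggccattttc
KIF20A (a kinesin), chr5:138178992-138179111, plus strand: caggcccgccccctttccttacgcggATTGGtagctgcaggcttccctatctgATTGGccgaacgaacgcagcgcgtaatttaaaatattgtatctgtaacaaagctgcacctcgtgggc
PRC1 (a midzone protein), chr15:90994536-90994655, minus strand: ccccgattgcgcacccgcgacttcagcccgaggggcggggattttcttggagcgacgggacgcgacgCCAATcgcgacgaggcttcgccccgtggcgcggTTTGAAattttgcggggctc
NCAPG (a condensin subunit), chr4:17810859-17810978, plus strand: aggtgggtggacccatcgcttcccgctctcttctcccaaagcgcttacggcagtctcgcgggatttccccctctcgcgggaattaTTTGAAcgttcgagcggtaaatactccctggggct

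The mitosis and spindle genes had lower values in KD1 than in CON or WT for most members, but no single member passed the test, and the size of the difference depended on the replicate. In KD1 vs CON, the median log2 ratio of the 43 was 0.00 in replicate 1 and -0.48 in replicate 2, and the median of the means was -0.27, beside -0.02 for all 15749 genes tested. In KD1 vs WT it was -0.21 and -0.52, with a median of the means of -0.35, beside 0.00 for all 17832 genes tested. In WT vs CON, which holds no KD1 RNA, the values were 0.27 and 0.03, with a median of the means of 0.10, beside -0.03 for all 19102 genes tested; this sign depended on the scaling, since under median centring, without the lowess fit, the 2 medians were -0.13 and -0.18.

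By limma with Benjamini-Hochberg adjustment over all probes tested, 0 of 43 members were called in any of the 3 comparisons at an adjusted p under 0.05. Among all genes, KD1 vs CON had 1.92% called (1.07% lower and 0.857% higher). KD1 vs WT had 1.21% (0.864% lower and 0.348% higher), and WT vs CON had 1.54% (0.681% lower and 0.859% higher). At an unadjusted limma p under 0.05, 8 members were lower and 0 higher in KD1 vs CON, where 9.11% of all genes were lower and 8.17% higher. In KD1 vs WT the counts were 12 lower and 0 higher, where the shares of all genes were 9.17% and 8.11%. In WT vs CON they were 2 lower and 4 higher, where the shares were 8.04% and 8.56%. On the log2 scale, the median standard error of a member was 0.22 in both KD1 comparisons and 0.23 for WT vs CON. The median 95% interval reached between 0.51 and 0.53 to each side, so a smaller difference in 1 gene was not detectable here. That interval is not adjusted over genes, so larger differences could also be missed in the adjusted test. ANLN, with a mean of -0.97 in KD1 vs WT, was not called. The lowest adjusted p among the members was 0.115, for ANLN when KD1 was compared with WT, and the lowest between WT and CON was 0.143 for ASPM and between KD1 and CON 0.162 for PRC1.

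The direction was counted without a test. For KD1 vs CON, 34 members had a mean below 0 (52.1% of all genes), for KD1 vs WT 40 (49.5%) and for WT vs CON 15 (53.5%). Below 0 in both replicates were 21 members in KD1 vs CON, where the share of all genes was 37.4%, and 34 members in KD1 vs WT, where it was 27.7%. Above 0 in both replicates were 1 member (KIF2C) in KD1 vs CON, against 34.2% of all genes, and 0 members in KD1 vs WT, against 28.8%. In WT vs CON the split was 8 below and 19 above, against 33.2% and 27.3% of all genes. A mean at least 1.5-fold lower was seen for 9 members in KD1 vs CON (7.61% of all genes) and for 11 in KD1 vs WT (8.95%), and a mean at least 1.5-fold higher for 0 in both (7.14% and 7.45%). Between WT and CON these counts were 2 lower (7.34%) and 5 higher (8.3%). No member was 2-fold lower on average in any comparison. All 4 arrays were below 0 for 19 members in KD1 vs CON (26.5% of all genes) and for 29 in KD1 vs WT (16.6%), and above 0 for 0 members in both (24.9% and 16.4%). For WT vs CON all 4 arrays were below 0 for 7 members (23.4%) and above 0 for 15 (20.1%). In both KD1 comparisons, which share the KD1 extracts, 15 members were below 0 in all 4 replicate values, against 16% of all genes: BUB1B, CCNB2, CDC25C, PLK1, TTK, KIF20A, KIF4A, PRC1, BIRC5, PTTG1, MAD2L1, ANLN, HMMR, CDCA8 and CCNF. Some of these values were close to 0, as for KIF4A (-0.01) and CDCA8 (-0.03) in replicate 1 of KD1 vs CON. The other probe of CCNF was above 0 in replicate 1 of both comparisons (0.0333 and 0.0338).

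**Figure D1:**
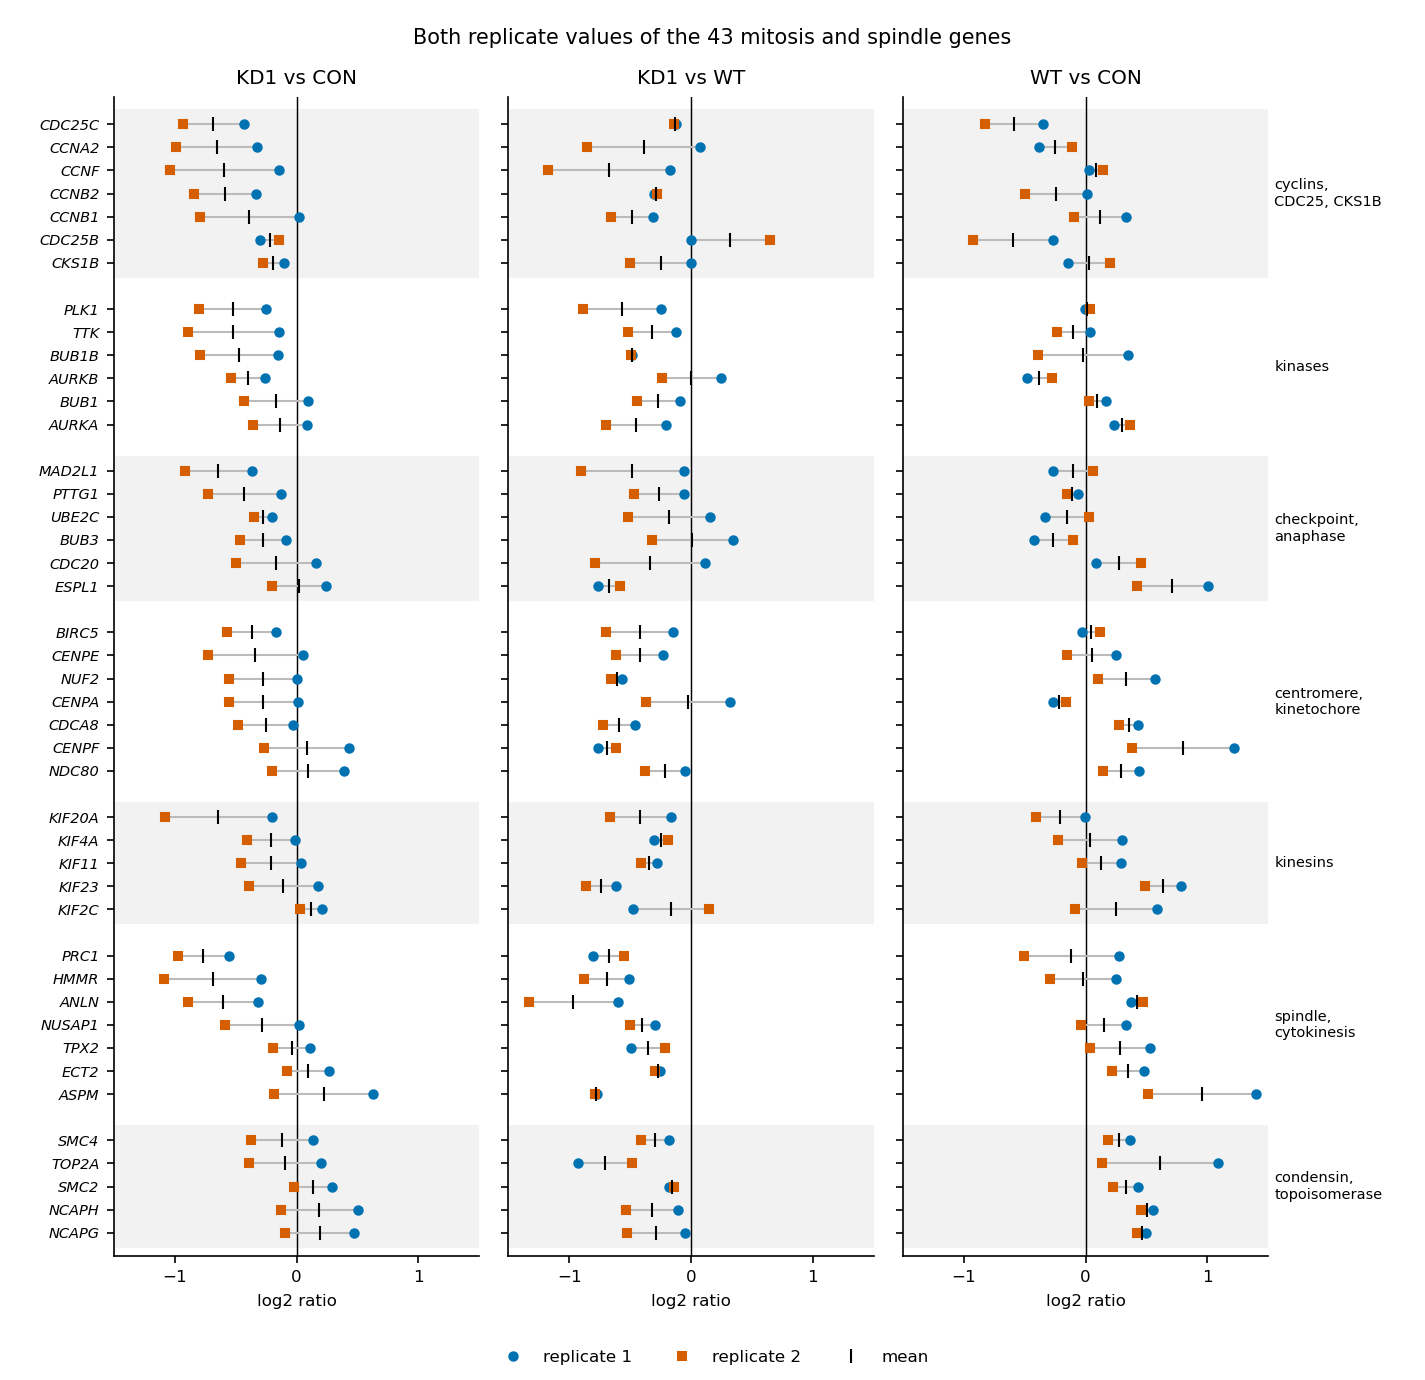
Log2 ratio (x axis) of each of the 43 members (rows, grouped by role) in KD1 vs CON, KD1 vs WT and WT vs CON. Circles are replicate 1, squares replicate 2 and ticks the mean of both. In KD1 vs CON, 42 of the 43 squares lie left of the circles, and 21 members have both marks below 0.

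Replicate 2 was lower than replicate 1 for 42 of the 43 members in KD1 vs CON, with CDC25B as the exception, and for all genes tested that share was 52.2%. It was lower for 33 members in KD1 vs WT, against 52.8% of all genes, and for 30 in WT vs CON, against 46.7%. The median of replicate 2 minus replicate 1 was -0.55 for KD1 vs CON, -0.34 for KD1 vs WT and -0.27 for WT vs CON. In replicate 1 of KD1 vs CON 21 of 43 members were below 0, near the share among all genes of 51%, and in replicate 2 it was 42 of 43, against 52.2%. In KD1 vs WT, 36 were below 0 in replicate 1 (46.4% of all genes) and 41 in replicate 2 (52.6%). For WT vs CON it was 13 in replicate 1 (55.2%) and 19 in replicate 2 (50.7%). The plot of replicate 2 against replicate 1 has nearly the whole list below the diagonal in KD1 vs CON.

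These signs depended on how the arrays were centred. The values above rest on the lowess fit of the scanner software. With median centring, the all-gene medians for KD1 vs CON were -0.46 in replicate 1 and -0.02 in replicate 2, and the member medians were -0.44 and -0.50. The members then lay 0.02 above all genes in replicate 1 and at -0.48 relative to them in replicate 2, where lowess gave 0.01 and -0.46. All 43 means were then below 0, and 40 members were below 0 in both replicates, so that no positive mean of a member against CON kept its sign. Replicate 2 was below replicate 1 for 32 members, where the share of all genes was 9.28%. Against WT, the members lay at -0.07 and -0.53 relative to all genes with median centring and at -0.25 and -0.49 with lowess. Between WT and CON they lay at 0.10 and 0.08, beside 0.33 and 0.04 with lowess. So the distance from all genes was similar under both for replicate 2 of the KD1 comparisons, while in replicate 1 of both comparisons with WT it was over 3-fold smaller with median centring.

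**Figure D2:**
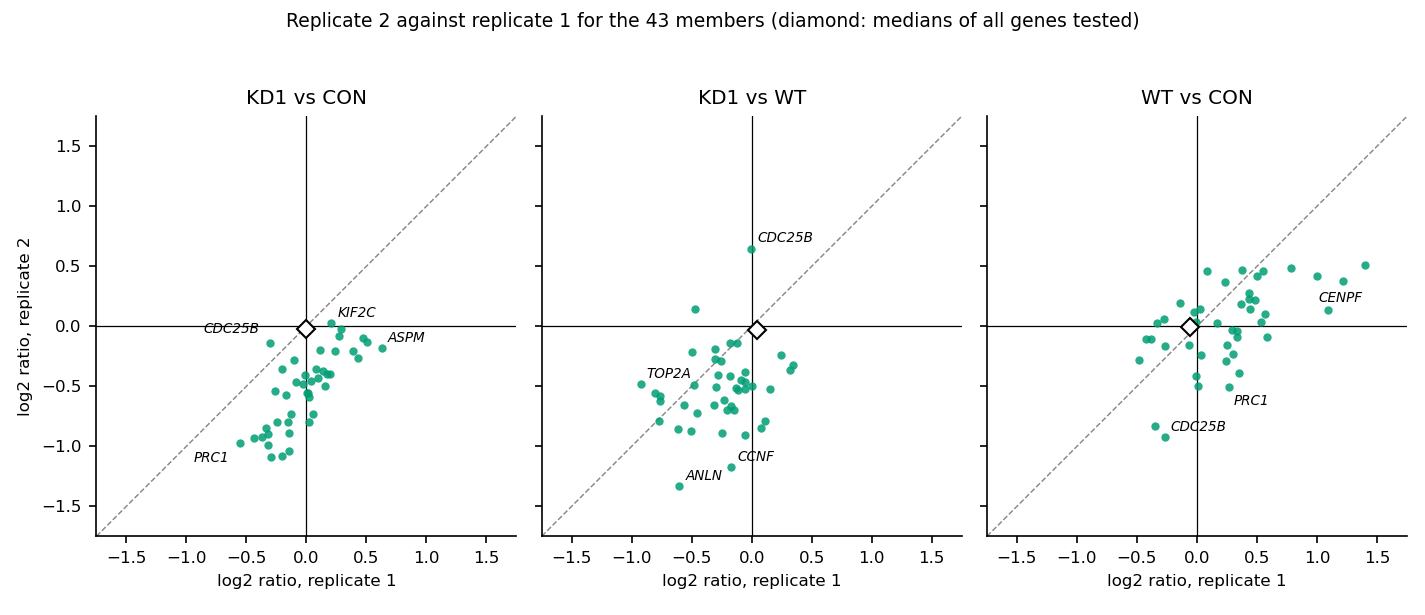
Log2 ratio in replicate 2 (y axis) against replicate 1 (x axis) of the 43 members (points) in each comparison; the dashed line marks equal values and the open diamond the medians of all genes tested. In KD1 vs CON, 42 of 43 points lie below the dashed line, and in WT vs CON the point farthest to the right is ASPM (1.40 and 0.51).

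The levels in the 6 RNA extracts were also set side by side, without a test. These levels are not ratios within an array. All 4 arrays of KD1 in replicate 1 were on slide 1 and those in replicate 2 on slide 2, while each CON and WT extract was also on slide 3. So for KD1 the extract and the slide cannot be told apart in these levels. Levels were taken per channel, averaged over the 4 arrays of an extract and given on the log2 scale relative to the mean of the 6 extracts. The member median was 0.11 in CON, 0.28 in WT and 0.03 in KD1 in replicate 1, and 0.04 in CON, 0.09 in WT and -0.43 in KD1 in replicate 2. For all 15706 genes tested in the 3 comparisons, the medians lay between -0.03 and 0.03. KD1 of replicate 2 was the lowest of the 6 extracts for 36 of the 43 members (21.6% of all genes) and lay below the mean for 42, again with CDC25B as the exception at 0.28. KD1 of replicate 1 was lowest for 0 members (13.1% of all genes) and highest for 3 (15.9%). WT of replicate 1 was the highest extract for 25 members (21.5% of all genes). The member values of KD1 in replicate 1 ran from -0.33 to 0.35 and those in replicate 2 from -0.97 to 0.28. In these channels, which the lowess fit had normalized, the lowest member median was that of KD1 in replicate 2 and the highest that of WT in replicate 1. The level of WT in replicate 1 depended on the scaling, since median centring took the members' distance from all genes in replicate 1 from -0.25 to -0.07 for KD1 vs WT and from 0.33 to 0.10 between WT and CON.

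**Figure D3:**
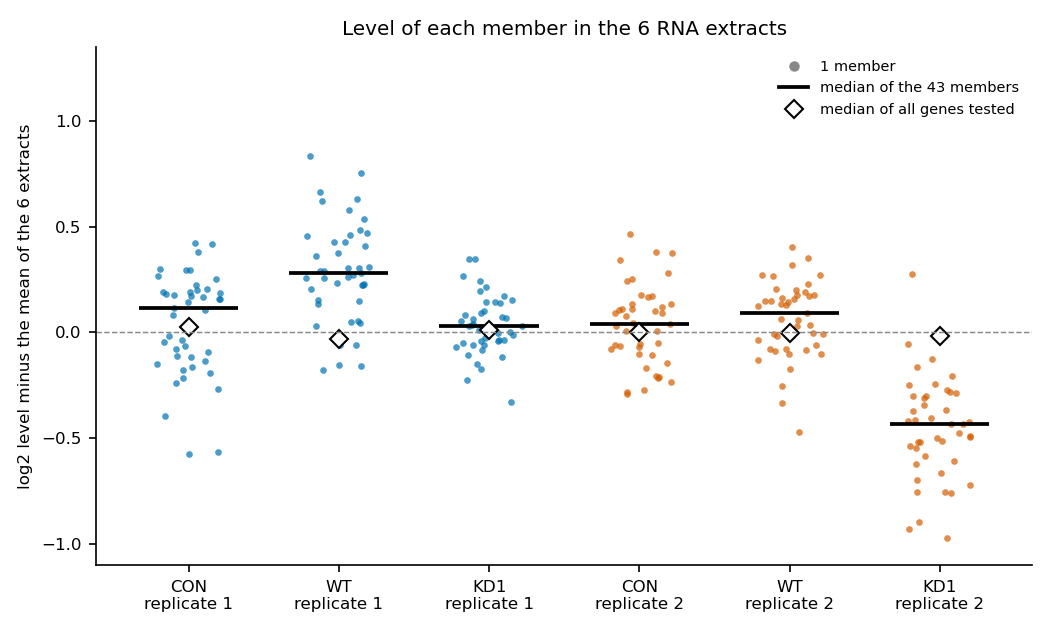
Log2 level of each of the 43 members in each RNA extract, relative to the mean of that gene over the 6 extracts (y axis), by culture and replicate (x axis). Points are members, bars their medians and open diamonds the medians of all genes tested. The bar is at -0.43 for KD1 of replicate 2 and between 0.03 and 0.28 for the other 5 extracts.

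The members are described below by role, with KD1 vs CON written as against CON and KD1 vs WT as against WT. Where 2 values follow each other they are the log2 ratios of replicates 1 and 2.

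The first role holds cyclins, the CDC25 phosphatases that switch on CDK1, and CKS1B, a CDK-binding protein. Of its 7 genes, all 7 means were below 0 against CON, with a median of -0.59, and 6 were below 0 in both replicates. This was the lowest median of the 7 roles as measured here, but with normexp and loess it was -0.39 and that of the mitotic kinases -0.46, and with the mean over all probes these were -0.40 and -0.44. The median was -0.29 against WT and -0.24 in WT vs CON. CDC25C, a phosphatase that activates CDK1, was at -0.43 and -0.94 in replicates 1 and 2 against CON, which is 1.61-fold lower on average (adjusted p = 0.170, limma). In KD1 vs WT it was at -0.12 and -0.14, and in WT vs CON at -0.35 and -0.83. So the values of CDC25C in KD1 and in WT were both below CON in each replicate, and KD1 and WT differed by less than the spread between replicates of the other comparisons. CCNA2, cyclin A2, was at -0.32 and -0.99 against CON (1.57-fold lower, adjusted p = 0.249, limma) and at 0.08 and -0.85 against WT, so that its replicates differed in sign there. CCNF, the F-box protein cyclin F, was at -0.15 and -1.04 against CON and at -0.17 and -1.17 against WT, values large in replicate 2 alone. CDC25B, a second CDK1-activating phosphatase, departed from most of the list against WT, and against CON its replicate 2 was the higher. It was at -0.30 and -0.14 against CON, at -0.0044 and 0.65 against WT and at -0.27 and -0.92 in WT vs CON. Values for CCNF, CDC25B and, below, AURKB, CENPF, NUF2, CDCA8, KIF23, KIF2C, ANLN, ASPM, TOP2A, SMC2 and SMC4 are given by a choice made after they were seen.

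Of the 6 mitotic kinases, 6 means were below 0 against CON (median -0.44) and 5 against WT (median -0.39), and in WT vs CON they split 3 and 3 (median 0.00). PLK1, the Polo-like kinase that matures centrosomes and promotes mitotic entry, was at -0.25 and -0.80 against CON (1.44-fold lower, adjusted p = 0.293, limma) and at -0.25 and -0.89 against WT (1.48-fold lower, adjusted p = 0.271, limma). Its brightest probe lies at chr16:23609129-23609188 on NCBI36, the build of the array's annotation, and its other probe gave -0.22 and -0.74 against CON. All 4 values were below 0, and in WT vs CON PLK1 was at -0.01 and 0.03. TTK, the MPS1 kinase of the spindle checkpoint, was at -0.15 and -0.89 against CON and at -0.13 and -0.52 against WT. AURKB, the catalytic kinase of the chromosomal passenger complex, had a mean of -0.40 against CON and one near 0 against WT whose sign changed with the processing, and was at -0.48 and -0.28 in WT vs CON.

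Of the 6 genes of the spindle checkpoint and of the release into anaphase, 5 means were below 0 in each KD1 comparison (medians -0.28 and -0.30). MAD2L1, the MAD2 inhibitor of the anaphase-promoting complex, was at -0.37 and -0.92 against CON (1.56-fold lower, adjusted p = 0.238, limma) and at -0.06 and -0.91 against WT. PTTG1, securin, which inhibits separase, was at -0.13 and -0.73 against CON and at -0.06 and -0.47 against WT. The separase gene ESPL1 behaved differently from its inhibitor, with 0.24 and -0.20 against CON, -0.76 and -0.58 against WT and 1.00 and 0.42 in WT vs CON, so that its mean was below 0 against WT and not against CON, where it was at -0.21 with median centring. Its other probe did not pass the filter in the KD1 comparisons, and was well above background on 4 of the 8 CON arrays and 3 of the 8 KD1 arrays. It was at -0.18 and -0.47 against CON, so the 2 probes differed in sign in replicate 1 and not in replicate 2. BUB3, a checkpoint scaffold, also had probes that disagreed. The brightest, A_23_P202316, was at -0.09 and -0.46 against CON, and the dimmest, A_23_P320658, was at 0.05 and 0.02.

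The 7 genes of the centromere, kinetochore and chromosomal passenger complex had medians of -0.27 against CON, -0.42 against WT and 0.29 in WT vs CON. All 7 means were below 0 against WT. BIRC5, survivin, a subunit of the passenger complex, was at -0.17 and -0.57 against CON and at -0.15 and -0.70 against WT, with values of -0.03 and 0.12 in WT vs CON. CENPE, a kinetochore motor, was at 0.05 and -0.73 against CON and at -0.23 and -0.61 against WT. CENPF, a kinetochore protein of G2 and M phase, was at 0.43 and -0.27 against CON and at -0.76 and -0.62 against WT, while in WT vs CON it was at 1.22 and 0.38. NUF2 and CDCA8 (borealin) were also below 0 in both replicates against WT, at -0.56 and -0.65 and at -0.46 and -0.73.

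Of the 5 kinesin motors, 4 means were below 0 against CON and 5 against WT (medians -0.21 and -0.35). KIF20A, which acts in cytokinesis, was at -0.21 and -1.08 against CON (1.56-fold lower, adjusted p = 0.241, limma) and at -0.17 and -0.67 against WT. KIF4A, a chromosome-bound motor that also acts at the midzone, was at -0.01 and -0.41 against CON and at -0.31 and -0.19 against WT. KIF23, a subunit of the centralspindlin complex, was below 0 in both replicates against WT (-0.62 and -0.86) but at 0.17 and -0.39 against CON, and it was above 0 in both of WT vs CON (0.79 and 0.49). KIF2C, which depolymerizes microtubules at the kinetochore, was at 0.21 and 0.02 against CON.

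The lowest single means of the list in both KD1 comparisons were in the 7 genes of spindle assembly and cytokinesis (PRC1 against CON and ANLN against WT). Against CON the group also held the highest mean of the list (ASPM, 0.22), and its median was above those of the cyclin and kinase roles. All 7 were below 0 in both replicates against WT (median -0.68), and 3 of them against CON (median -0.28). PRC1, which bundles the microtubules of the spindle midzone, had a log2 ratio of -0.55 in replicate 1 and -0.98 in replicate 2 against CON, with all 4 arrays below 0, so it was 1.70-fold lower on average (adjusted p = 0.162, limma). In KD1 vs WT it was at -0.80 and -0.55, 1.60-fold lower (adjusted p = 0.214, limma). The probe lies at chr15:89310430-89310489 on NCBI36. Both replicates agreed in direction in both KD1 comparisons, and in WT vs CON they did not (0.27 and -0.50). HMMR, a hyaluronan-binding protein of the spindle poles, was at -0.29 and -1.09 against CON (1.61-fold lower, adjusted p = 0.208, limma) and at -0.51 and -0.88 against WT (1.62-fold lower, adjusted p = 0.222, limma). ANLN, anillin, the scaffold of the contractile ring, had the lowest mean of any member against WT, at -0.60 and -1.33 (1.96-fold lower, adjusted p = 0.115, limma), and was at -0.32 and -0.89 against CON. In WT vs CON it was at 0.37 and 0.47. ASPM, a spindle-pole protein, was at -0.77 and -0.79 against WT, but at 0.63 and -0.18 against CON and at 1.40 and 0.51 in WT vs CON, the highest mean of the list there. So ASPM was lower in KD1 than in WT in both replicates and, in replicate 1, higher in KD1 than in CON.

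The 5 genes of condensin and topoisomerase, which compact and disentangle chromosomes, shared a pattern of signs. It was not theirs alone, since members of other roles, among them ASPM, CENPF, ESPL1 and KIF23, had the same signs. In KD1 vs CON all 5 were above 0 in replicate 1 and below 0 in replicate 2 (median of the means 0.13), while with median centring 2 of the 5 were above 0 in replicate 1 (median -0.11). In KD1 vs WT all 5 were below 0 in both replicates (median -0.30), or 3 of 5 with median centring (median -0.20). In WT vs CON all 5 were above 0 in both (median 0.46), or 2 of 5 with median centring (median 0.21). NCAPG, a condensin subunit, was at 0.47 and -0.10 against CON, at -0.05 and -0.53 against WT and at 0.50 and 0.42 in WT vs CON. NCAPH, the kleisin subunit of the same complex, was at 0.50 and -0.13, at -0.11 and -0.53, and at 0.55 and 0.46. TOP2A, topoisomerase II alpha, was at -0.93 and -0.48 against WT and at 1.09 and 0.13 in WT vs CON. SMC2 and SMC4 had means of 0.13 and -0.12 against CON and of -0.16 and -0.30 against WT. The medians of the other 6 roles against CON were between -0.59 and -0.21, below that of this group, as they were with median centring (between -0.83 and -0.44). This was a description over 5 to 7 genes with no test.

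The same 43 genes were set beside other cell-cycle lists of no shared member. Of 77 further mitotic genes, 76 were on the array. Against CON, 0 of them were called lower and 1 called higher by limma, beside 1.07% and 0.857% of all genes. The called gene was CDC16, a subunit of the anaphase-promoting complex, at 1.03 and 1.08 (adjusted p = 0.0434, limma), a call that held in 3 of 9 alternatives (adjusted p from 0.0327 to 0.152). Against WT it was at 0.03 and 0.02, and in WT vs CON at 0.97 and 1.15 (adjusted p = 0.0566, limma). So the values of CDC16 in KD1 and in WT were both above CON in each replicate. None of the 76 was called against WT, where 15 were lower and 1 higher at an unadjusted limma p under 0.05, beside 9.17% and 8.11% of all genes. Their medians were -0.21 against CON and -0.24 against WT, and against CON 72 of 76 were lower in replicate 2 than in replicate 1. CDK1, the kinase at the center of the list (named CDC2 on the array), was at 0.01 and -0.24 against CON and at 0.12 and -0.23 against WT. The proliferation marker MKI67 was at 0.47 and -0.14 and at -0.47 and -0.23.

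Of 39 S-phase genes, which encode the replication machinery, 0 were called in either KD1 comparison by limma, with 1 lower and 2 higher at an unadjusted p under 0.05 in both, beside 9.11% and 8.17% of all genes against CON and 9.17% and 8.11% against WT. In WT vs CON 1 was called lower, GINS4, a subunit of the GINS complex of the replicative helicase, at -1.34 and -1.55 (adjusted p = 0.0445, limma), and against WT it was at 1.53 and 1.34 (adjusted p = 0.0504, limma). The call of GINS4 was lost with normexp and loess, where 0 probes were called lower in WT vs CON by limma. The medians of the 39 genes were -0.17 against CON and -0.15 against WT. In KD1 vs CON, 39 of 39 were lower in replicate 2 than in replicate 1. Of 19 transcription regulators of the cell cycle, 18 were tested against CON, where LIN54 did not pass the filter, and 19 against WT. By limma 0 were called, with 1 higher and 0 lower at an unadjusted p under 0.05 against CON and none against WT. The medians of those tested were -0.04 in both KD1 comparisons. FOXM1, an activator of G2 and M genes, was at 0.34 and 0.23 against CON and at 0.27 and 0.01 against WT, and MYBL2, which acts with it, at 0.21 and 0.19 and at 0.55 and 0.01. All 4 values of FOXM1 and of MYBL2 were thus above 0, but with median centring the mean of MYBL2 against CON was -0.0275. The members had the lowest medians of these lists in both KD1 comparisons, a difference that was not tested. All of these lists were written with earlier results of these data known.

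**Figure D4:**
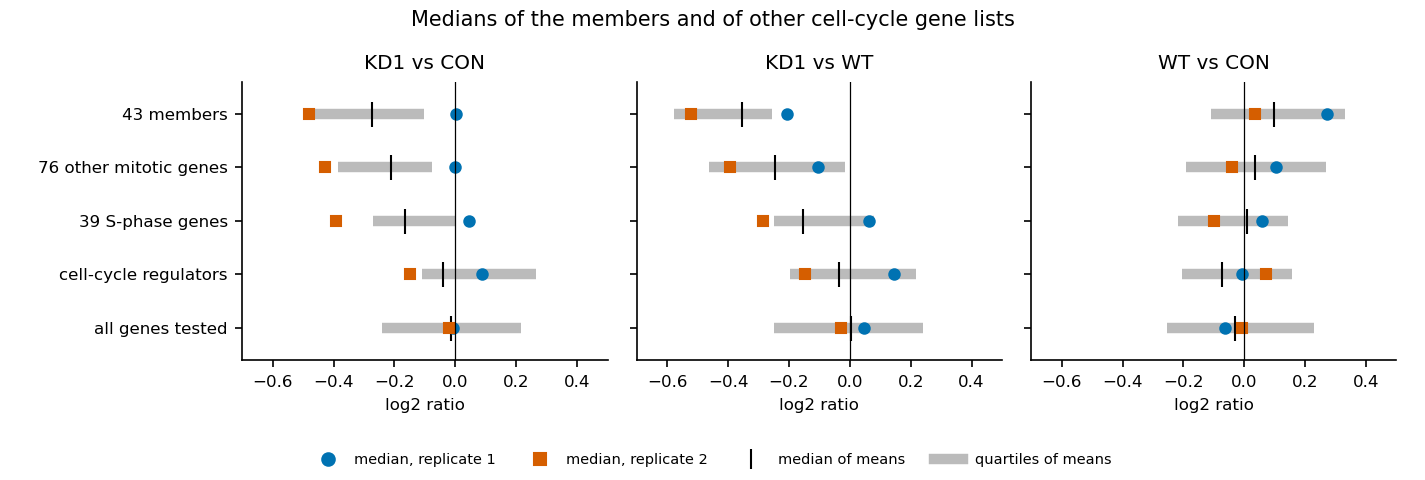
Median log2 ratio (x axis) of the members, of 76 other mitotic genes, 39 S-phase genes, the cell-cycle transcription regulators and all genes tested (rows) in the 3 comparisons. Circles are the medians of replicate 1, squares of replicate 2, ticks of the means, and gray bars the quartiles of the means. In KD1 vs CON the square of the members is at -0.48 and that of all genes at -0.02.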

How the data were processed

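The authors extracted the 12 arrays with Agilent Feature Extraction 10.5.1.1 (per the file headers) and deposited linear intensity values per spot, including processed signals after background subtraction and lowess normalization, and a log10 ratio. The deposited series table holds log2 ratios that correlated with these at 0.9025 or above; 0 of its columns were without a sample. Probe positions are on NCBI36 per the file headers.

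Log2 ratios of the processed intensities were turned so that the first-named culture is the numerator and averaged over the spots of a probe (95 to 188 outlier-flagged spots per array left out) and over each dye-swap pair, giving 6 replicate values. Probes entered a test if, on each array of that comparison, Cy3 or Cy5 exceeded the limit set by the negative control spots (the 99th percentile of 153) after background subtraction. limma 3.58.1 (lmFit, eBayes; R 4.3.3) fitted 1 coefficient per comparison with residual degrees of freedom held at 2 in place of the 3 of 6 independent ratios, since 3 extracts underlie the ratios of each replicate; the loop fit, which models the extracts, has 2 of its own; Benjamini-Hochberg adjustment ran over all probes tested, with a threshold of 0.05. The replicate number was tied to the array by the ratio. Each gene was its brightest probe. In a simulation of KD1 vs CON (21925 probes) the fit, tested on simulated data, recovered 93.4% of changes of 2 and 99.0% of changes of 3 on the log2 scale, with 9.7 false calls on average over 10 simulations; smaller changes were not simulated. The number of arrays limits the precision, with 2 replicates per comparison.

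The members, roles and other lists were written from general knowledge of the cell cycle and chosen with earlier results of these data known. Values are given for members passing the test, the 2 of each role with the largest absolute mean in KD1 vs CON, members whose probes differed in sign there, and members not well above background, plus others chosen after their values were seen; of other lists for called genes and for CDK1, MKI67, FOXM1 and MYBL2. Motifs were searched in a promoter table of RefSeq. Alternatives were normexp (offset 50) with loess, median centring, no filter or a well-above-background filter, the series table, fits without the replicate block or with a loop block, the mean over probes, and each replicate left out; the unchanged residual degrees of freedom were added later. Python 3.11.15, numpy 2.4.6, pandas 2.3.3 and matplotlib 3.10.9 were used.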

Additional observations from a re-analysis of the deposited data

How the results depend on the processing

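No member was called in any comparison under any alternative fitted (0 of 43 each time by limma); at an unadjusted limma p under 0.05 the counts ran from 3 to 14 in KD1 vs CON, from 2 to 15 in KD1 vs WT and from 3 to 11 in WT vs CON. With replicate 2 left out, the member median in KD1 vs CON was 0.0015, and with replicate 1 left out -0.4795; in KD1 vs WT the range was -0.2076 to -0.5219, and in WT vs CON 0.0335 to 0.2708. Median centring in place of lowess moved the WT vs CON median to -0.1302, where the median of all genes was -0.1835. It moved the median of all genes in KD1 vs CON to -0.2434, so that the members lay 0.25 below it on the log2 scale at -0.4953, and in KD1 vs WT the members lay at -0.2402 and all genes at 0.0448. Signs reversed in KD1 vs CON under median centring for NCAPG (-0.0343), NCAPH (-0.0544), ESPL1 (-0.2088), CENPF (-0.1551), KIF2C (-0.1133), ASPM (-0.0032), SMC2 (-0.114), MKI67 (-0.0736) and MYBL2 (-0.0275), and in KD1 vs WT for CDK1 (0.0729). Signs also reversed with the mean over all probes for ESPL1 in KD1 vs CON (-0.1535) and for BUB3 in KD1 vs WT (-0.0892), and for AURKB in KD1 vs WT with normexp and loess (-0.0256), without the replicate block (-0.0309) and with the loop block (-0.0061). CDC16 against CON lost its call in 6 of 9 alternatives and kept its direction. The other 591 values, of named members and of CDC16, CDK1, MKI67, FOXM1 and MYBL2, kept their direction and their side of the threshold. Those of CDC16, CDK1, MKI67, FOXM1 and MYBL2 were added after seeing the data. All of these values were ratios with KD1 as the numerator. Ratios of WT to CON were not checked gene by gene. There, median centring took the number of members with a mean below 0 from 15 to 27.

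Without the replicate block, with separate channels, the member medians were -0.2273, -0.3695 and 0.0863 in KD1 vs CON, KD1 vs WT and WT vs CON; with the replicate block and all 3 comparisons in a loop they were -0.2613, -0.3733 and 0.0982. The deviations of samples with the same number correlated with -0.02 between CON and WT, 0.54 between CON and KD1 and -0.07 between WT and KD1. The main fit used ratios of extracts with the same number, so it paired the cultures by number. The fit without the replicate block did not. Over all probes, the number called in KD1 vs CON, KD1 vs WT and WT vs CON was 396, 272 and 377 as reported. It was 26, 1 and 2 with normexp and loess, 1017, 962 and 1028 with median centring, 201, 126 and 114 without the replicate block, 161, 111 and 131 with the loop block, 253, 185 and 200 without the filter, and 381, 154 and 233 with the residual degrees of freedom of the fit itself, 3, an alternative added after seeing the data; the causes were not tested. Leaving out a replicate left 1 value per comparison, and these medians have no test.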
